A study of Mus musculus with 22 samples.

Results

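The genes described here encode the proteins of the cytosolic ribosome, and they were chosen by name: protein-coding mouse genes whose symbols start with Rpl or Rps followed by a digit, together with Rplp0, Rplp1, Rplp2 and Rpsa, and without the Rps6k kinases and the pseudogenes. The rule found 86 of the 39056 genes in the count table, of which 52 carry large-subunit names and 33 small-subunit names. The remaining one, Rps19bp1, is not a ribosomal protein but a nucleolar protein named for its binding to RPS19. It is kept in every count and median over the members, since the rule takes it, and is named where its own values are given. A filter of at least 500 counts over the 22 libraries left 83 of the 86 genes and 14072 genes in all. The 3 genes that did not pass were Rpl10l, with 0 counts in TRAP and 2 in total-RNA, Rpl39l, with 10 and 14 counts, and Rpl3l, with 95 and 73 counts, and each is a copy of a ribosomal protein gene known mainly from testis or muscle.

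The libraries came from the prefrontal cortex (PFC) of 11 male mice aged 8 to 12 weeks on a C57BL/6J background, and every animal, Controls included, carried a tetO-EGFP/Rpl10a transgene switched on by a CaMKIIα-tTA driver, so that EGFP-tagged ribosomes were made in CaMKIIα-expressing neurons. Control mice (n = 3) received saline, EtOH mice (n = 4) received 2 g/kg/day of ethanol as 2 intraperitoneal injections a day for 4 days, and EtOH + ABT-888 mice (n = 4) received in addition 25 mg/kg of ABT-888, an inhibitor of the poly(ADP-ribose) polymerases, on day 4. No group received ABT-888 without ethanol. Each mouse gave a TRAP library, of RNA recovered with the tagged ribosomes by an anti-EGFP pull-down (translating ribosome affinity purification). It also gave a total-RNA library, from supernatant of the same centrifuged homogenate set aside before the pull-down and not limited to tagged cells. The 22 libraries thus fell into 6 groups. TRAP measures which RNA is held by tagged ribosomes and not how fast it is translated.

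A ribosome is built from ribosomal RNA and one copy of most of these proteins, and their mRNAs are among the most abundant of a cell. Nearly all of them are TOP mRNAs: they begin with a cytosine followed by an uninterrupted run of pyrimidines, the terminal oligopyrimidine tract. When the kinase mTOR is inactive, the protein Larp1 binds the cap and the tract and keeps these mRNAs off ribosomes as a group, and when mTOR is active they are loaded again. Neurons also hold ribosomal protein mRNAs in dendrites and axons. The purpose of the comparisons was to learn whether ethanol, and ethanol with a PARP inhibitor, changed the engagement of mRNAs with ribosomes, against the RNA present in the same tissue.

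TRAP libraries held 6570957 to 22002618 counted reads and total-RNA libraries 22132534 to 32421392. TRAP libraries were poor in glial RNA: the summed level of 6 astrocyte markers was 43.6 to 207 normalized CPM (reads scaled to library size) in TRAP and 913 to 1190 CPM in total-RNA, and all 6 were lower in TRAP in each of the 3 treatments. The oligodendrocyte sum was 317 to 1460 CPM in TRAP, highest in mouse 11, against 1600 to 3140 CPM in total-RNA, and the microglial and endothelial markers Cx3cr1, Aif1, Tek and Kdr were at 0 in some TRAP libraries. Inhibitory neuron markers were mixed: their sum was 1650 to 2290 CPM in TRAP and 699 to 1000 CPM in total-RNA, and 3 of 6 were higher in TRAP in each treatment, while 1, 2 and 2 were lower in Control, EtOH and EtOH + ABT-888, Pvalb standing at 4.48 to 9.45 CPM in TRAP and 17.4 to 40.6 CPM in total-RNA. The label of cortical excitatory neurons was met only in part. Of 6 excitatory markers 1, Nrgn, was higher in TRAP than in total-RNA in all 3 treatments, at 1580 to 3590 CPM against 745 to 1500 CPM, and 4 were lower in all 3, among them Tbr1, Neurod6 and Slc17a7. Camk2a stood at 1730 to 2940 CPM in TRAP and 1810 to 2640 CPM in total-RNA, while 6 of 6 markers of striatal projection neurons, summing to 8500 to 12300 CPM in TRAP against 840 to 1770 CPM in total-RNA, were higher. The TRAP values below are therefore those of the tagged cells, whichever neurons these were. Mitochondrial reads made up 0.152% to 0.636% of TRAP libraries and 3.81% to 7.82% of total-RNA libraries.

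Ribosomal protein genes took a share of the total-RNA reads that differed little between mice, from 0.661% to 0.824%, but a share of TRAP reads that spread widely. In Control_TRAP the share was 0.815% in mouse 1, 0.55% in mouse 4 and 0.763% in mouse 7. In EtOH_TRAP it was 0.703% in mouse 2, 0.907% in mouse 5, 1.161% in mouse 8 and 1.155% in mouse 9. In EtOH + ABT-888_TRAP it was 0.522% in mouse 3, 0.863% in mouse 6, 1.192% in mouse 10 and 1.123% in mouse 11. The shares of treated mice thus reached from below the lowest Control to above the highest, and the 4 libraries of mice 8 to 11, none of them a Control, stood highest. Treated mice 2 and 3, with the lowest shares of their groups, had the highest astrocyte marker sums in TRAP, 207 and 174 CPM, but mouse 11, with a share of 1.123%, followed with 150 CPM, and Control mouse 4, with 0.55%, had 68 CPM. Mice 2 and 3 were also highest in TRAP for microglial sums (31.7 and 38.1 CPM), endothelial sums (24.6 and 18.3 CPM) and mitochondrial reads (0.636% and 0.62%). Against this, mouse 11 followed in the endothelial sum (17.3 CPM) and in mitochondrial reads (0.46%). Control mouse 4 had 12.7 CPM, 5.69 CPM and 0.152% for the same measures. The part of those cells and reads in the shares was not tested. Whether the numbering of the mice follows a day or a batch is not stated in the sources used here, so the results are also given without mice 8 to 11, an alternative chosen after seeing the data.

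**Figure D1:**
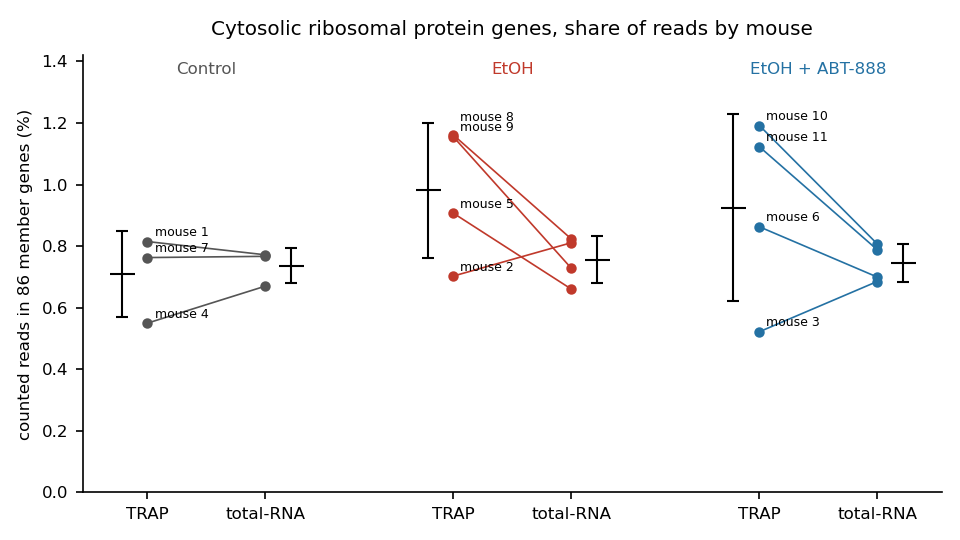
Percent of counted reads assigned to the 86 genes of the rule, with a line joining the TRAP and total-RNA libraries of each mouse and bars for the mean ± SD of each group. Total-RNA points lie between 0.661% and 0.824%, whereas TRAP points run from 0.522% in mouse 3 to 1.192% in mouse 10.

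The genes moved up and down together between TRAP libraries. Over the 11 TRAP libraries a gene's log2 CPM spanned 1.44 in the median gene, against 0.53 over the 11 total-RNA libraries, and its SD was larger in TRAP for 83 of 83 genes. The correlation of a gene with the median of the other members had a median of 0.935 over the 11 TRAP libraries, and 73 of 83 genes exceeded 0.8. Over the 11 total-RNA libraries the median was 0.818. These correlations are descriptions over libraries that share their depth, scaling and treatment. The lowest values in TRAP belonged to Rpl7l1 (-0.747), Rps19bp1 (0.283), Rpl10a (0.369) and Rpl15 (0.436), singled out after the values were seen. Rpl7l1 is a paralog of Rpl7 that acts in ribosome assembly, and Rpl10a is the subunit that carries the tag.

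**Figure D2:**
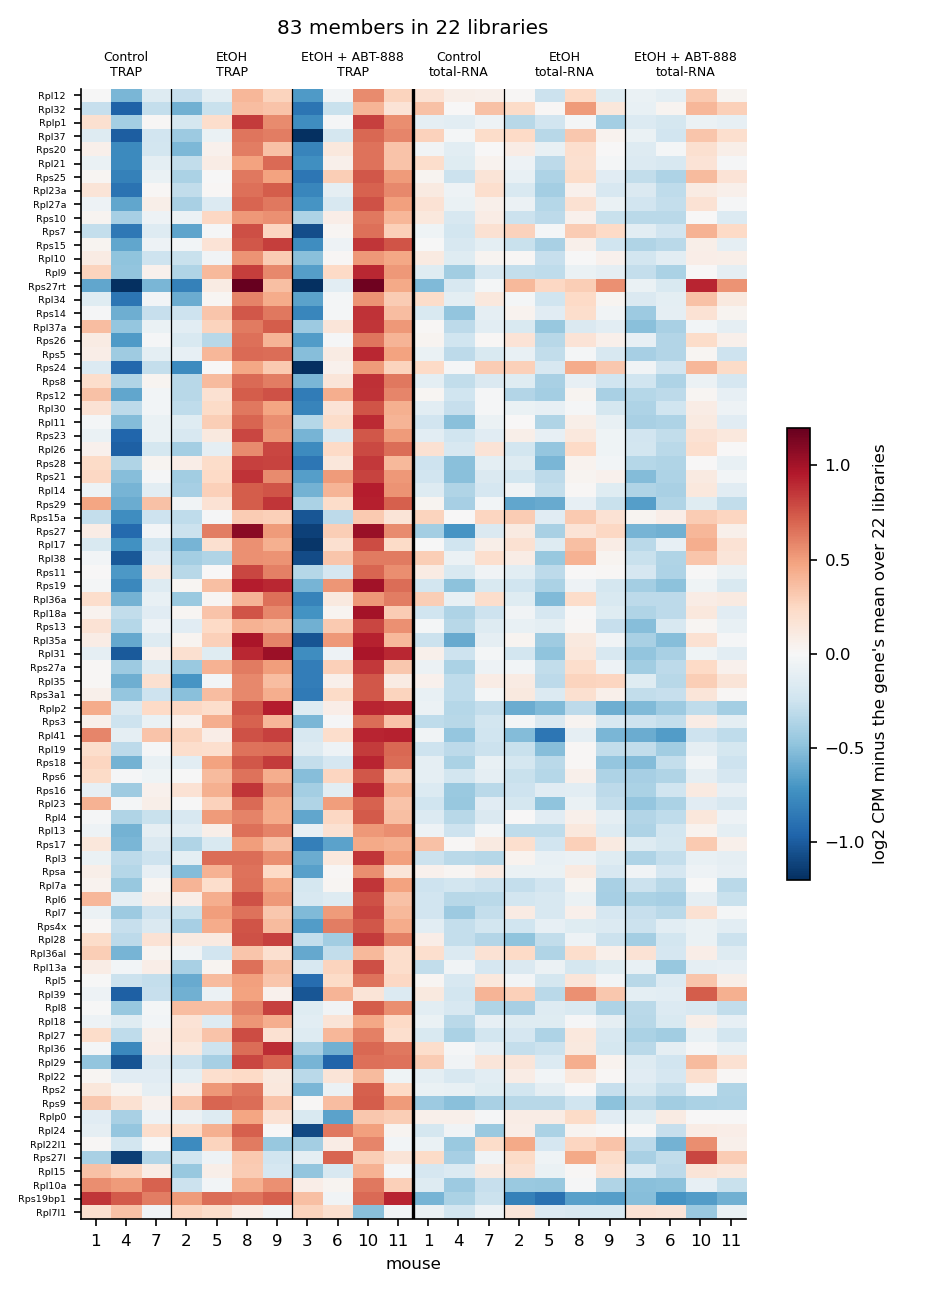
Log2 CPM of the 83 genes in the 22 libraries, each gene centred on its mean over the 22 libraries and coloured from blue (low) to red (high); columns are mice grouped by treatment and pool, and rows are ordered by their correlation with the other members in TRAP. In TRAP most rows change together, low in mice 3 and 4 and high in mice 8 to 11.

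Because members moved together, the sequence around their annotated starts was read from RefSeq's promoters, which cover 250 bases before to 50 bases after each start on GRCm38.p6. Of the 86 genes, 66 were matched, with 78 of the 32851 promoters. A run of at least 8 C or T letters on the sense strand, from 50 bases before to 50 after the start, was present in 75.6% of the members' promoters and in 35.7% of all promoters. The letters CTTTCC, which can lie within such a run, occurred on the sense strand of that window in 30.8% of members' promoters and in 4.69% of all, and on either strand of the whole 300 bases in 51.3% against 26.6%. The letters CTTCCG, the core bound by ETS factors such as GABP, occurred on either strand of the 300 bases in 60.3% of members' promoters and in 16.9% of all; the last C of a CTTTCC can be the first of a CTTCCG. An annotated start need not be the first base of the mRNA, so these runs are letters near the start and not measured tracts. The sequences shown are those of the matched genes named below in the comparison of TRAP with total-RNA in Control mice, and of Rpl7l1 and Rps10, and capitals mark the longest run of C and T.
Rplp2, chr7:141447636-141447665, plus strand: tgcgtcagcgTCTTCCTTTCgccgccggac
Rps9, chr7:3704024-3704053, plus strand: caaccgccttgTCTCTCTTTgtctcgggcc
Rpl6, chr5:121204521-121204550, plus strand: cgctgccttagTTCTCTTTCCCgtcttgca
Rpl23, chr11:97782404-97782433, minus strand: gagtgggcggggCCTCCCgttcatatccca
Rpl15, chr14:18270968-18270997, minus strand: gagaaagCCTTCTTCCTTTCCTCTggcggc
Rpl41, chr10:128549119-128549148, minus strand: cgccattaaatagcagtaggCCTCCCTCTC
Rps15a, chr7:118116143-118116172, minus strand: gcccggcccaCTCTCTTTCTgccatcttcc
Rps24, chr14:24490710-24490739, plus strand: gagcggTCCTCTTTTCCTCCTCTCCagctc
Rpl37, chr15:5116631-5116660, plus strand: ggcgggggtgCTTTCTCTTCCggtctcttt
Rps10, chr17:27635227-27635256, minus strand: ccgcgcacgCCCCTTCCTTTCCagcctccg
Rpl10a, chr17:28328572-28328601, plus strand: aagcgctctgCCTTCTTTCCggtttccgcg
Rpl7l1, chr17:46782671-46782700, minus strand: cgtcgaggcgggCCTCTCTaccccgcccgg
Rps19bp1, chr15:80264329-80264358, minus strand: gctcctgctccagTTTCTgccgaggagcga
Rpl23, Rpl7l1 and Rps19bp1 had runs shorter than 8 letters. In EtOH_TRAP against Control_TRAP the 51 genes with a run of 8 or more had a median log2 difference of 0.472 and the 12 with a shorter one 0.448. In EtOH + ABT-888_TRAP against Control_TRAP the medians were 0.39 and 0.272, and in TRAP against total-RNA of Control mice -0.009 and 0.096. These are descriptions with no test.

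The question of the first comparison was which of these mRNAs stood higher or lower in TRAP than in total-RNA. TRAP holds RNA from tagged cells only, whereas total-RNA comes from all cell types of the tissue. A difference between the pools can thus come from the cells sampled or from the hold of ribosomes, which cannot be told apart here. In Control mice the answer differed from gene to gene: 8 of 83 genes were higher in TRAP than in total-RNA, 8 were lower, and the median log2 difference was 0.0, beside 0.015 over all genes tested. A gene is called changed at an adjusted p under 0.05. By this test 59.9% of all genes tested were called in Control mice, 29.5% higher and 30.4% lower. The members were called in 16 cases, and their balance rested on single libraries: without Control_TRAP mouse 4 there were 19 higher and 5 lower, and without Control_TRAP mouse 1 there were 4 higher and 15 lower. In bulk samples such as these, fewer cells of a type and less RNA per cell cannot be told apart.

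The smallest adjusted p among them was that of Rpl10a, the tagged subunit (ENSMUSG00000037805, chr17:28328471-28331033 on mm10). Its level was 94.03, 91.47 and 104.8 CPM in Control_TRAP and 57.58, 47.49 and 52.81 CPM in Control_total-RNA. The groups did not overlap, and the log2 difference was 0.86 (SE 0.103, adjusted p = 2.7e-05, edgeR quasi-likelihood test). Of its 50-base words 77.7% occur also in other transcripts, the exons overlap CT025652.2 on the opposite strand, and RNA of the EGFP/Rpl10a transgene cannot be told apart from that of the endogenous gene.

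Rps9, a small-subunit protein that lines the mRNA entry path (chr7:3703993-3706897), stood at 136.5, 124.3 and 113.5 CPM in Control_TRAP against 80.8, 77.02 and 83.37 CPM in Control_total-RNA, a log2 difference of 0.62 (SE 0.0943). Rpl6 (0.41) and Rpl23 (0.42), both of the large subunit, were also higher in TRAP without overlap. Rplp2 and Rpl41 were called with overlapping groups, at 0.40 and 0.53, and Rpl15 at 0.30. The call of Rpl23 was lost without Control_TRAP mouse 1 or Control_total-RNA mouse 4 (adjusted p up to 0.0672). Rps19bp1, the nucleolar binding partner, had the largest log2 difference of the 83 genes: 26.84, 24.54 and 22.65 CPM in TRAP and 10.03, 11.3 and 12.37 CPM in total-RNA, a log2 difference of 1.11 (SE 0.136).

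The 5 genes of smallest p among those lower in Control_TRAP were of both subunits, and their groups did not overlap. Rps15a (chr7:118104372-118116188) stood at 77.74, 56.27 and 79.69 CPM in TRAP and 113.5, 95.14 and 113.0 CPM in total-RNA, and fell by 0.61 on the log2 scale (SE 0.135, adjusted p = 0.00238, edgeR). Rpl32 (chr6:115805505-115808747), whose exons overlap Cand2 on the opposite strand, stood at 83.38, 51.29 and 82.3 CPM against 128.7, 101.0 and 128.4 CPM, a log2 difference of -0.74. Rpl29 (-0.68), Rps24 (-0.63) and Rpl37 (-0.60) completed the list. Mouse 4, whose TRAP library had the lowest share of ribosomal protein reads among Controls, also had the lowest TRAP value of Rps15a and of Rpl32. The call of Rpl37 was lost without Control_total-RNA mouse 1 or mouse 7 (adjusted p up to 0.0579). With the mouse as a replicate block, 27 genes were called in Control mice, 8 higher and 19 lower, and 62.5% of all genes tested.

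In EtOH mice 32 of 83 genes were higher in TRAP than in total-RNA and 0 were lower, with a median log2 difference of 0.42 beside 0.03 over all genes. No member was lower at an unadjusted p under 0.05 either. All genes tested were called in 50.7% of cases, 24.3% higher and 26.5% lower. Of the called genes 17 were of the large subunit, 14 of the small subunit and 1 was Rps19bp1, and 75 of 83 genes lay above 0.

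Rplp2, one of the acidic proteins of the stalk that engages elongation factors (chr7:141447370-141451585), stood at 158.5, 153.7, 224.2 and 255.5 CPM in EtOH_TRAP and 88.1, 92.35, 107.3 and 88.75 CPM in EtOH_total-RNA. Every TRAP library lay above every total-RNA library, and the log2 difference was 1.06 (SE 0.178, adjusted p = 0.000486, edgeR). Rpl8, a large-subunit protein near the peptidyl transferase centre (chr15:76904078-76906314), stood at 236.6, 237.0, 277.8 and 323.0 CPM in TRAP and 139.2, 164.7, 161.7 and 141.8 CPM in total-RNA, a log2 difference of 0.81. Rps9 (0.853), Rpl41 (0.985) and Rps19bp1 (1.376) likewise did not overlap. These 5 calls held without any 1 of the 8 libraries. For Rpl10a the log2 difference was 0.50 (adjusted p = 0.0476, edgeR), its groups overlapped and its call held in 3 of 8 fits with a library left out. The total number of calls ran from 21, without EtOH_TRAP mouse 8 or EtOH_total-RNA mouse 9, to 53, without EtOH_TRAP mouse 2, where 49.0% of all genes were called. It was 5, with a median of 0.161, without mice 8 to 11, where 26.7% of all genes were called.

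In EtOH + ABT-888 mice 12 of 83 genes were higher in TRAP and 0 lower, with a median of 0.39 beside 0.05 over all genes. None of the members was lower at an unadjusted p under 0.05. All genes tested were called in 41.0% of cases, 19.5% higher and 21.5% lower. Rplp2 stood at 119.5, 140.2, 250.8 and 246.9 CPM in TRAP and 92.14 to 107.9 CPM in total-RNA, a log2 difference of 0.93 (SE 0.231). The TRAP values of Rplp2 fell into a pair near the total-RNA level, mice 3 and 6, and a pair far above it, mice 10 and 11. Rps9 (0.805), Rpl41 (0.983), Rps19bp1 (1.145) and Rpl10a (0.61, adjusted p = 0.0154, edgeR) were called as well, and the call of Rpl10a was lost without EtOH + ABT-888_total-RNA mouse 6 (adjusted p = 0.053). With the mouse as a replicate block 29 genes were higher and 0 lower, and 54.3% of all genes were called. The count was 46 without EtOH + ABT-888_TRAP mouse 3, 5 without TRAP mouse 10, TRAP mouse 11, total-RNA mouse 3 or total-RNA mouse 11, 4 without total-RNA mouse 6, and 0 without mice 8 to 11, where 21.4% of all genes were called. The median was 0.156 without TRAP mouse 10, 0.59 without TRAP mouse 3 and 0.042 without mice 8 to 11.

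**Figure D3:**
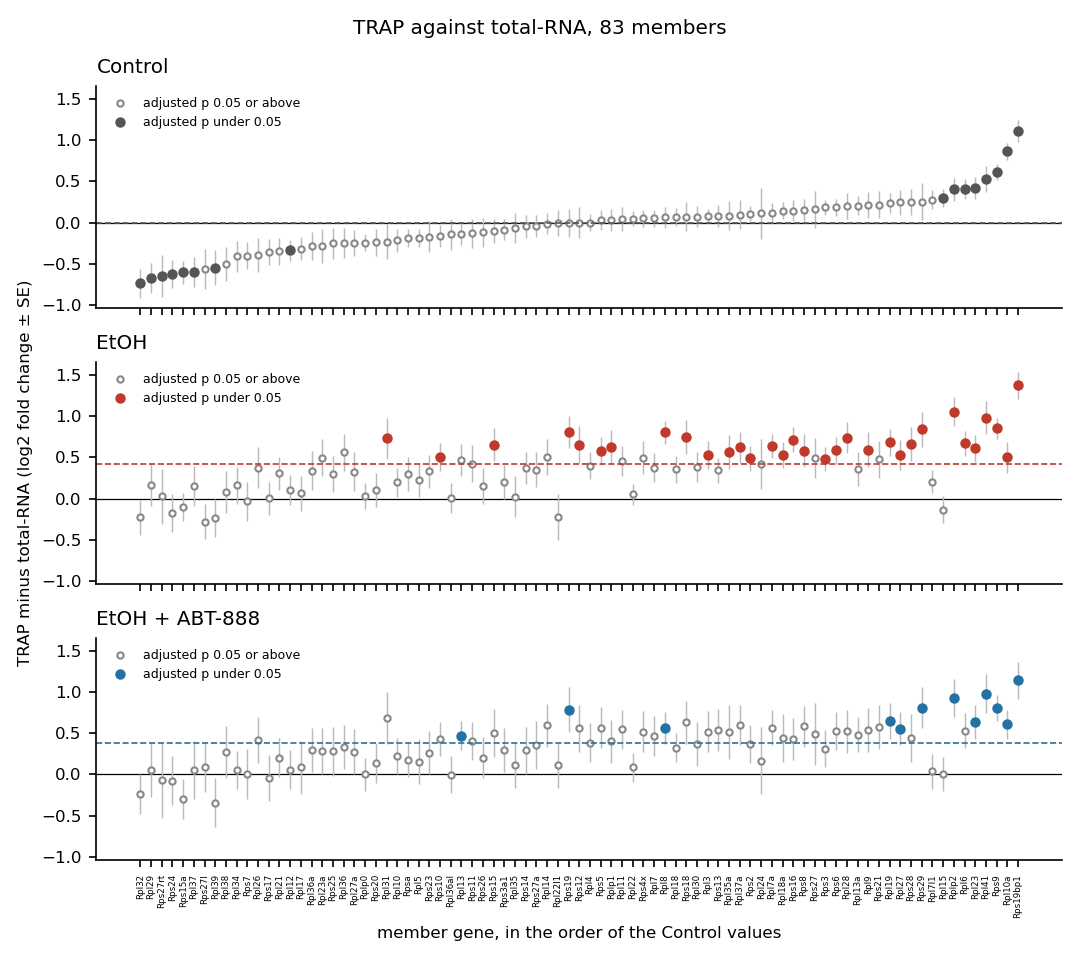
Log2 difference between TRAP and total-RNA for each of the 83 genes in Control, EtOH and EtOH + ABT-888 mice, in 3 panels with the genes in the order of the Control values; points are fitted values ± SE, filled where the adjusted p is under 0.05, and dashed lines are medians. The medians lie at 0.0, 0.418 and 0.388, and Control holds calls in both directions while the treated groups hold calls above 0 only.

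The same difference can be read mouse by mouse, as the median over the 83 genes of log2 CPM in TRAP minus that in total-RNA. It was 0.123, -0.195 and 0.019 in the Control mice, -0.181, 0.465, 0.595 and 0.631 in the EtOH mice and -0.307, 0.391, 0.633 and 0.477 in the EtOH + ABT-888 mice. In 3 of 4 mice of each treated group it was above every Control, and in the remaining mouse, 2 or 3, it was negative. The number of genes higher in TRAP went with it, 23 to 56 in Control mice, 33 in mouse 2 and 20 in mouse 3, and 73 to 80 in the other treated mice. Mitochondrial ribosomal proteins, which are encoded in the nucleus and are not known as TOP mRNAs, had a median of 0.37 to 0.633 in every mouse. They were higher in TRAP in 49 of 77 genes in Control mice, 41 in EtOH mice and 30 in EtOH + ABT-888 mice, with medians of 0.5, 0.484 and 0.447. Of all genes tested 29.5%, 24.3% and 19.5% were called higher.

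Whether treatment changed the TRAP pool was asked by comparing TRAP libraries. In EtOH_TRAP against Control_TRAP 79 of 83 genes lay above 0 with a median log2 difference of 0.49, beside 0.017 over all genes, but only 1, Rpl8, was called. Of all genes tested 5.24% were called, and 23.1% had an unadjusted p under 0.05, as did 33 of the 83 members. Rpl8 stood at 182.5, 133.7 and 180.8 CPM in Control_TRAP and at 236.6, 237.0, 277.8 and 323.0 CPM in EtOH_TRAP. Every EtOH library was above every Control, and the log2 difference was 0.72 (SE 0.168, adjusted p = 0.0317, edgeR). Only 6.5% of its 50-base words occur in other transcripts. The call held in 3 of 7 fits with a library left out and was lost without Control_TRAP mouse 1, 4 or 7 or EtOH_TRAP mouse 8, with adjusted p up to 0.151.

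Just outside the threshold stood Rps19, a small-subunit protein mutated in Diamond-Blackfan anaemia, at 74.33, 44.11 and 67.77 CPM in Control_TRAP and 76.53, 97.03, 144.8 and 140.9 CPM in EtOH_TRAP (log2 difference 0.91, adjusted p = 0.0537, edgeR). Rpl3 (0.72), Rps16 (0.69) and Rpl7a (0.57) followed it. All 33 small-subunit genes lay above 0, from 0.316 to 1.29, with a median of 0.519, and the large-subunit median was 0.469. The stalk genes Rplp0, Rplp1 and Rplp2 had log2 differences of 0.34, 0.47 and 0.40, and Rpsa, the laminin receptor precursor and small-subunit protein, 0.40, none of them called. The 4 genes below 0 were Rpl10a, Rpl15, Rps19bp1 and Rpl7l1, which also had the 4 lowest correlations with the other members over the TRAP libraries. Both measures come from shared TRAP values, so the match is not a second observation. Rpl10a had 53.44, 62.81, 86.11 and 93.78 CPM in EtOH_TRAP, against 91.47 to 104.8 CPM in Control_TRAP, a log2 difference of -0.36 that was not called (adjusted p = 0.282, edgeR).

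The number of calls in this comparison moved with single libraries and with the tool. It was 21 without EtOH_TRAP mouse 2, 1 (Rpl8) without EtOH_TRAP mouse 5 or mouse 9, and 0 without each of the other 4 libraries, and without mouse 2 the share of all genes called was 4.31%. DESeq2 called 16 members and 10.8% of all genes, edgeR's exactTest 10 and 9.75%, and the same quasi-likelihood test with no filter on low counts 28 and 6.13%. The median was 0.321 without Control_TRAP mouse 4. Among 6 excitatory, 6 microglial and 6 striatal projection neuron markers, 1 of each was lower in EtOH_TRAP than in Control_TRAP, with medians of -0.937, -1.294 and -0.061 and with 1, 1 and 3 markers above 0, and their part in the members' values was not tested. Without mice 8 to 11 the median was 0.153 and the 1 member called was Rpl10a, lower, where 12.2% of all genes were called.

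In EtOH + ABT-888_TRAP against the same Control_TRAP libraries 79 of 83 genes again lay above 0, with a median of 0.41 beside 0.024 over all genes. By edgeR's quasi-likelihood test 0 members were called, 7 had an unadjusted p under 0.05, and neither DESeq2 nor exactTest called any. Of all genes tested 0.476% were called and 12.1% had an unadjusted p under 0.05. Rpl8 stood at 166.3, 178.4, 304.0 and 270.6 CPM, so that mice 3 and 6 fell among the Controls and mice 10 and 11 above them, and its log2 difference was 0.49 (SE 0.225, adjusted p = 0.416, edgeR). Rps27l, a stress-inducible paralog of Rps27, had the lowest adjusted p of the members, with a log2 difference of 0.89 (SE 0.317, adjusted p = 0.275, edgeR). Leaving out EtOH + ABT-888_TRAP mouse 3 gave 4 calls and a median of 0.62, the median was 0.223 without EtOH + ABT-888_TRAP mouse 10 and 0.245 without Control_TRAP mouse 4, and without mice 8 to 11 it was -0.025. In the same comparison 6 of 6 oligodendrocyte markers lay above 0 with a median of 0.875, none called, and 2 of 6 excitatory markers were lower with a median of -1.017, and their part in the members' values was not tested. The comparisons of both treatments share the 3 Control_TRAP libraries, so their likeness is not a second observation.

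**Figure D4:**
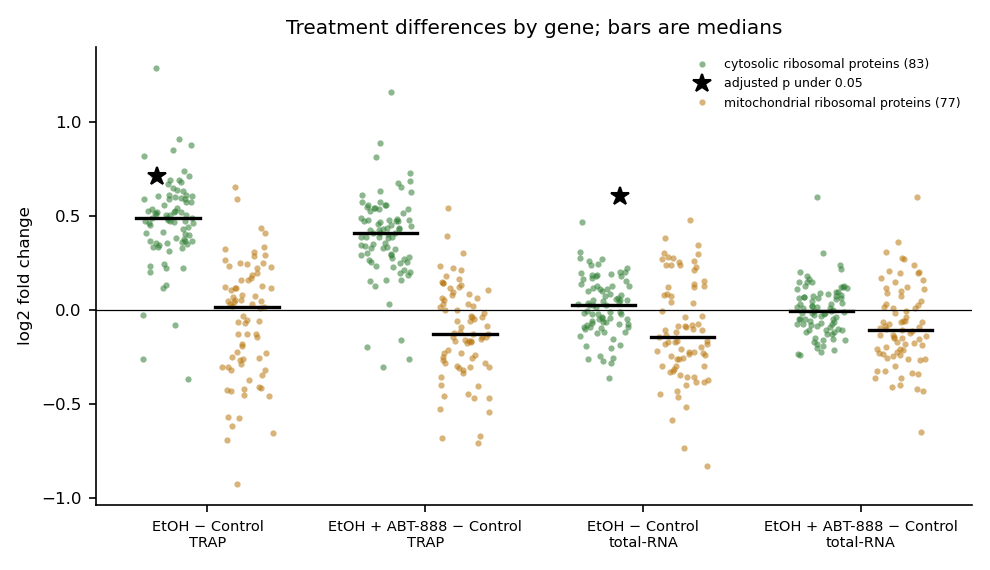
Log2 difference of each treatment against Control for the 83 genes (green) and 77 mitochondrial ribosomal protein genes (orange), in TRAP and in total-RNA; points are genes, bars are medians and stars are members with an adjusted p under 0.05. In TRAP 79 of 83 genes lie above 0 for either treatment, with medians of 0.493 and 0.409, and in total-RNA the medians are 0.028 and -0.007 for the 83 genes and -0.143 and -0.108 for the mitochondrial ones.

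In total-RNA the medians lay near 0. EtOH_total-RNA against Control_total-RNA gave a median of 0.028, with 45 genes above 0 and 38 below, and 1 called gene, where 17.6% of all genes tested were called. Of the members 7 had an unadjusted p under 0.05, and of all genes 33.9%. The called gene was Rps27rt, an intronless copy of Rps27 (chr9:114982366-114982739) that shares 91.1% of its 50-base words with other transcripts, so that its counts may belong in part to Rps27. It stood at 7.918, 10.06 and 11.28 CPM in Control_total-RNA and at 15.01, 13.61, 14.06 and 16.79 CPM in EtOH_total-RNA. The groups did not overlap, and the log2 difference was 0.61 (SE 0.159, adjusted p = 0.0214, edgeR). Rps27 itself had a log2 difference of 0.47 (adjusted p = 0.0654, edgeR). The call of Rps27rt was lost without Control_total-RNA mouse 1 or mouse 4, with adjusted p up to 0.119. DESeq2 called 3 members and 22.1% of all genes, and exactTest 2 and 21.4%. Without mice 8 to 11 the median was -0.055 and there were 8 calls, Rpl3 and Rps27rt higher and Rpl23a, Rpl26, Rpl36a, Rpl41, Rplp2 and Rps29 lower, where 27.0% of all genes were called. Microglial markers differed between these groups, 5 of 6 being lower in EtOH_total-RNA, with sums of 76.9 to 112 CPM against 225 to 238 CPM, as were 3 of 6 excitatory and 2 of 6 endothelial markers. Of 6 markers each, 1 inhibitory, 1 oligodendrocyte and 1 striatal projection neuron marker was higher. Among 6 astrocyte markers 1 was higher and 1 lower. The part of these cells in the members' values was not tested.

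EtOH + ABT-888_total-RNA against Control_total-RNA gave a median of -0.007, with 39 genes above 0 and 44 below. By edgeR's quasi-likelihood test 0 members were called and 1 had an unadjusted p under 0.05, with 0 calls by DESeq2 and by exactTest. Of all genes 0.263% were called and 15.9% had an unadjusted p under 0.05. Rps27rt had 10.86, 10.12, 21.61 and 16.66 CPM, a range that overlapped the Controls, and the log2 difference was 0.60 (SE 0.267, adjusted p = 0.302, edgeR). Without mice 8 to 11 the median of the members was -0.159, with 76 of 83 below 0 and 20 at an unadjusted p under 0.05, and 0 were called. In that fit 2669 of the 14072 genes had an unadjusted p under 0.05 and 1.04% were called. The balance also turned with single libraries, from 18 genes above 0 without EtOH + ABT-888_total-RNA mouse 10 to 54 without mouse 3.

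Adding ABT-888 to ethanol was tested directly, EtOH + ABT-888 against EtOH. In TRAP 67 of 83 genes lay below 0, with a median of -0.089, and in total-RNA 59 lay below 0 with a median of -0.03. The direction turned with single libraries: in TRAP 69 lay above 0 without EtOH + ABT-888_TRAP mouse 3 (median 0.108) and 54 without EtOH_TRAP mouse 8 (median 0.043), and in total-RNA 54 lay above 0 without EtOH + ABT-888 mouse 3, 49 without mouse 6 and 51 without EtOH mouse 8. Other libraries moved it the other way: the TRAP median was -0.286 without EtOH + ABT-888_TRAP mouse 10 and -0.244 without EtOH_TRAP mouse 2. Without mice 8 to 11 the medians were -0.205 in TRAP and -0.108 in total-RNA. In neither pool was a member called by edgeR's quasi-likelihood test, by DESeq2 or by exactTest, and 0 members had an unadjusted p under 0.05. Of all genes 0% were called in TRAP and 0% in total-RNA, with 0.966% and 1.90% at an unadjusted p under 0.05. In TRAP 6 of 6 oligodendrocyte markers lay above 0 (median 0.837), as did 5 of 6 microglial (0.646) and 2 of 6 excitatory markers (-0.048), none called. Their part in the members' values was not tested. The standard errors of the members' log2 differences ran from 0.187 to 0.494 in TRAP, with a median of 0.282, and from 0.101 to 0.25 in total-RNA, with a median of 0.138.

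Whether ethanol moved TRAP more than it moved total-RNA was tested by an interaction over all 22 libraries. For EtOH the interaction was above 0 in 79 of 83 genes, with a median of 0.43 beside -0.003 over all genes, and for EtOH + ABT-888 in 80 of 83, with a median of 0.39 beside 0.01. Without mice 8 to 11 the medians were 0.266 and 0.109, with 74 and 59 genes above 0. That of EtOH + ABT-888 was 0.167 without TRAP mouse 10 and 0.593 without TRAP mouse 3. No member passed in either: edgeR's quasi-likelihood test called 0, with 6 and 3 members at an unadjusted p under 0.05, and edgeR's likelihood ratio test also called 0. Of all genes 0.0213% and 0% were called, with 4.87% and 3.38% at an unadjusted p under 0.05. Rpl8 had an interaction of 0.74 (SE 0.247, adjusted p = 0.802, edgeR) for EtOH. With the mouse as a replicate block, 25 and 7 members had an unadjusted p under 0.05, again with 0 calls, beside 10.6% and 7.36% of all genes at that p and 0.0995% and 0% called. Without the block, oligodendrocyte markers had interaction medians of 0.041 for EtOH and 0.775 for EtOH + ABT-888, with 3 and 6 of 6 above 0. Excitatory markers had -0.586 and -0.854, with 1 of 6 above 0 in each. None was called, and their part in the members' values was not tested.

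**Figure D5:**
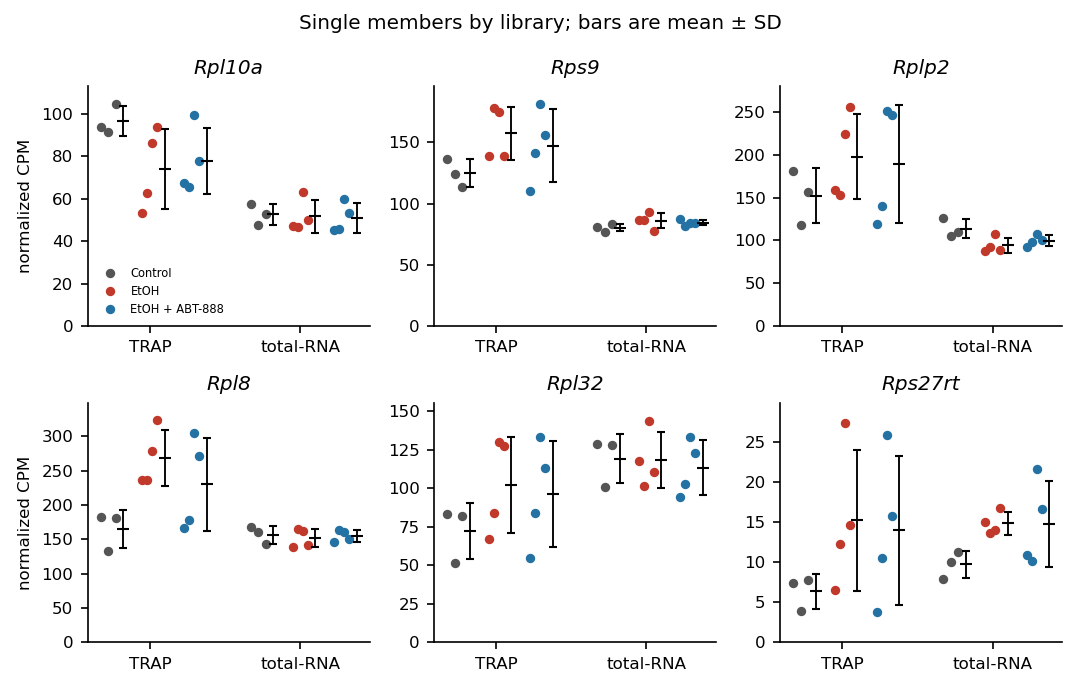
CPM of Rpl10a, Rps9, Rplp2, Rpl8, Rpl32 and Rps27rt in each library, by pool and treatment, with each mouse as a point and bars for the group mean ± SD. Rpl10a is higher in TRAP than in total-RNA in Control mice (91.47 to 104.8 against 47.49 to 57.58 CPM), and Rpl8 in EtOH_TRAP (236.6 to 323.0 CPM) lies above Control_TRAP (133.7 to 182.5 CPM).

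Levels of different genes were compared per kilobase of exon, taken as the union of all exons annotated for a gene. That length, 630 bases for Rps15 and 4043 for Rpl18, depends on which isoforms are annotated. Its part in the order below was not tested. Over the 22 libraries the highest means were those of Rps15 (442.4 CPM per kilobase), Rplp1 (390.8) and Rpl4 (261.4), and the lowest those of Rpl24 (2.316), Rpl18 (8.132) and Rpl7l1 (9.501). Rps15, Rplp1 and the 3 lowest kept these places in each pool, while the third highest was Rpl41 in TRAP (292.1, with Rpl4 at 289.6) and Rpl38 in total-RNA (244.1, with Rpl4 at 233.2). Rps15 in TRAP ran from 252.3 to 766.7 and Rplp1 from 224.5 to 671.4 CPM per kilobase, so that these neighbours were not separated by the spread between libraries. Of the 50-base words of Rpl24, a large-subunit protein, 81.7% are found in other transcripts, and its exons overlap Gm28037 on the same strand. For Rpl18 and Rpl7l1 the shared part is 25.3% and 9.2%, and whether sharing bears on these levels was not tested. Such sharing was common, with a median of 46.0% over the 86 genes and 38 genes above 50%, and 273 ribosomal protein pseudogenes are annotated in the same table. How reads that match several places were counted is not given in the sources used here, so absolute levels are uncertain. The shared sequence of a gene is the same for every library, but the reads from other transcripts need not be. Reads assigned to the pseudogenes made up 0.0206% of the TRAP library of mouse 3 and 0.0558% of that of mouse 8. Their part in the comparisons was not tested. Across the 83 genes the log2 difference of EtOH_TRAP against Control_TRAP had a Pearson correlation of 0.104 with the shared percentage and -0.188 with exonic length, descriptions across genes that are not independent.

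Paralogs were set beside their parent genes, and of those below edgeR's quasi-likelihood test called only Rps27rt between treatments, in EtOH_total-RNA against Control_total-RNA. For EtOH against Control in TRAP exactTest called Rpl3 and Rps27rt and DESeq2 called Rpl3, Rpl7 and Rps27rt. In total-RNA exactTest also called Rps27, and DESeq2 Rpl3 and Rps27. In EtOH_TRAP against Control_TRAP, Rpl7 had a log2 difference of 0.61 and Rpl7l1 -0.026. In Control_TRAP Rpl7 stood at 147.8 ± 18.69 CPM (mean ± SD, n = 3) and Rpl7l1 at 37.18 ± 5.038 CPM, and in EtOH_TRAP Rpl7 stood at 222.2 ± 55.85 CPM (n = 4) and Rpl7l1 at 36.03 ± 3.305 CPM. Rpl22, which binds RNA outside the ribosome too, had 0.22 and Rpl22l1 0.12, while Rpl36a had 0.36 and the copy Rpl36al 0.14. Rps27 had 0.82, Rps27l 0.57 and Rps27rt 1.29, with mean Control_TRAP levels of 38.7, 6.073 and 6.385 CPM. Rpl10 (0.38), Rpl39 (0.44), Rpl3 (0.72) and the X-linked Rps4x (0.52) have partners that were hardly counted or not tested as members. Paralog and parent were not tested against each other.

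Other TOP mRNAs and further gene lists were counted in the same way. In TRAP against total-RNA 59.9%, 50.7% and 41.0% of all genes were called in Control, EtOH and EtOH + ABT-888 mice. For EtOH against Control the shares were 5.24% in TRAP and 17.6% in total-RNA, and no list was tested against these shares. The list of other TOP mRNAs held 14 genes for translation elongation and initiation factors and for Tpt1, Pabpc1, Npm1, Nap1l1 and Hnrnpa1. In Control mice 3 were higher and 4 lower in TRAP than in total-RNA, in EtOH mice 6 were higher and 0 lower, and in EtOH + ABT-888 mice 4 and 1. In EtOH_TRAP against Control_TRAP 13 of 14 lay above 0 with a median of 0.31, and 2 were called, Eif3f, a subunit of the initiation factor eIF3 (0.88, adjusted p = 0.0222, edgeR), and Eif4b, a cofactor of the helicase eIF4A (0.78, adjusted p = 0.0354, edgeR). In total-RNA Eif3e (0.525) and Eif4b (0.615) were called. Fau and Rack1, ribosomal proteins with other symbols, had log2 differences of 0.59 and 0.27 in TRAP, neither called, and Fau was higher in TRAP than in total-RNA in EtOH mice (0.88). Of 13 genes that control TOP mRNAs, such as Larp1 and the mTOR complex, 5 were higher and 2 lower in TRAP than in total-RNA in Control mice, and none was called between treatments in either pool by edgeR's quasi-likelihood test, which says nothing of their protein or activity. Among 20 ribosome assembly genes none was called between TRAP groups, and in EtOH_total-RNA against Control_total-RNA 1 was higher and 3 lower. Mitochondrial ribosomal proteins had a median of 0.014 in EtOH_TRAP against Control_TRAP, with 0 of 77 called, and -0.143 in total-RNA, with 1 higher and 6 lower.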

How the data were processed

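RNA of 22 libraries was sequenced as 2×50 paired reads after rRNA depletion and CORALL library preparation. The authors aligned the reads with STAR to mm10, counted them per gene with featureCounts on an Ensembl annotation, and deposited raw counts; software versions, strand setting and the treatment of multi-mapping reads are not given in the sources used here. Replicates are separate mice. Ensembl IDs were named through GENCODE release 21, which covered 38872 of 39056 IDs; all 22 columns were used. The members and gene lists were chosen with earlier results of these data known.

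Genes with at least 500 counts in total and detected in at least 3 libraries were kept (14072). Each comparison used only the libraries of its groups, TMM factors and edgeR 4.0.16's quasi-likelihood test in R 4.3.3, with Benjamini-Hochberg adjustment over all 14072 genes and calls at 0.05; interactions used all libraries. Printed CPM are scaled by TMM over the 22 libraries, with a prior count of 1 on the log2 scale. The code was tested on simulated data.

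The genes named were Rpl10a, the stalk genes, Rpsa, the paralog pairs, the 3 highest and lowest per kilobase, and in each comparison the called genes whose groups did not overlap, up to 5 per direction by p; Rps19, Rpl3, Rps16 and Rpl7a near the threshold, and Rpl15, were added after their values were seen, and Rps10 because its mice differed in sign. Alternatives were RLE factors, TMM without the members, no filter, filterByExpr, exactTest, the likelihood ratio test, DESeq2 1.42.0, 1 fit over all groups, the mouse as a replicate block, an adjusted p under 0.01 and each library left out. The pairing comes from the animal number in the labels: the deviations of a mouse's TRAP and total-RNA libraries from their group means correlated over genes at 0.102 to 0.622 in 11 of 11 mice, and in 10 of them the own total-RNA library gave the highest value (TRAP mouse 6 reached 0.14 with total-RNA mouse 11).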

Additional observations from a re-analysis of the deposited data

Results flagged for a closer look

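One of the 83 genes had TRAP minus total-RNA differences of opposite sign in every mouse of Control and of EtOH, beside 1.09% of all genes tested (154 of 14072), so the share of members was near that of all genes. Rps10, a small-subunit protein, had log2 differences of -0.102, -0.203 and -0.142 in the 3 Control mice and of 0.185, 0.567, 0.467 and 0.816 in the 4 EtOH mice, so that the EtOH mouse nearest to the Controls stood at 0.18. The EtOH + ABT-888 mice had -0.049, 0.407, 0.636 and 0.564. The interaction of EtOH with pool for Rps10 was 0.67 (SE 0.274, adjusted p = 0.98, edgeR's quasi-likelihood test), so the difference did not pass the test over all genes. Exons of Rps10 overlap Gm15420 on the opposite strand and RPS10-NUDT3 on the same strand. No value stood far enough from the others of its group to be marked in the 72 sets of 4 values examined, where chance marks about 1 in 20. Each set holds values of the 4 libraries of a group. Such sets do not judge a library as a whole, and the number of calls moved with single libraries.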

How the results depend on the processing

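No called value of a named gene changed direction under any alternative run. RLE factors, TMM factors computed without the members and filterByExpr left every count of called members within 1.5 times its value. Without a filter on low counts, TRAP against total-RNA in Control gave 27 calls in place of 16, EtOH against Control in TRAP 28 in place of 1, EtOH + ABT-888 against Control in TRAP 1 in place of 0, and EtOH against Control in total-RNA 2 in place of 1. Of all genes in these unfiltered fits 36.8%, 6.13%, 1.91% and 12.8% were called, in that order. The cause was not tested. In EtOH against Control, exactTest called 10 in TRAP and 2 in total-RNA, beside 9.75% and 21.4% of all genes. DESeq2 called 16 and 3, beside 10.8% and 22.1%. A fit over all 22 libraries called 5 in TRAP against total-RNA in Control, 26 in EtOH + ABT-888, 2 in EtOH against Control in TRAP and 0 in total-RNA. The mouse as a replicate block, with the pairing by animal, called 27 in Control and 29 in EtOH + ABT-888, kept the count in EtOH within 1.5 times at 39, and changed no other call of the interactions, which stayed at 0. With the block 62.5%, 54.3% and 58.8% of all genes were called in Control, EtOH + ABT-888 and EtOH. At an adjusted p under 0.01 the TRAP against total-RNA counts were 7, 14 and 4 in Control, EtOH and EtOH + ABT-888, beside 6637, 5097 and 3815 of all 14072 genes.

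Leaving out 1 library at a time gave 11 to 24 calls in Control, 21 to 53 in EtOH and 4 to 46 in EtOH + ABT-888 for TRAP against total-RNA. For EtOH against Control it gave 0 to 21 in TRAP and 0 to 2 in total-RNA, with 0 to 4 in EtOH + ABT-888_TRAP against Control_TRAP. Without mice 8 to 11, chosen after seeing the data, TRAP against total-RNA gave 5 calls in EtOH and 0 in EtOH + ABT-888, EtOH against Control gave 1 in TRAP, Rpl10a, which was lower, and 8 in total-RNA, and the median of EtOH against Control in TRAP fell from 0.493 to 0.153. That alternative leaves 2 mice in each treated group.

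Depth limits few members here: Rpl24 and the Rps27 copies have the lowest counts, and the 3 genes that did not pass the filter cannot be compared. The spread between TRAP libraries, a median log2 range of 1.44 against 0.53 in total-RNA, goes with larger standard errors in the TRAP comparisons of treatments. The 4 mice with the highest TRAP shares hold no Control, so a property of those mice and the treatments cannot be told apart.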
